A study of Arabidopsis thaliana with 12 samples.

Results

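The 9 loci described here encode the 1-aminocyclopropane-1-carboxylate (ACC) synthases of Arabidopsis: ACS1 (AT3G61510), ACS2 (AT1G01480), ACS4 (AT2G22810), ACS5 (AT5G65800), ACS6 (AT4G11280), ACS7 (AT4G26200), ACS8 (AT4G37770), ACS9 (AT3G49700) and ACS11 (AT4G08040). They were chosen by locus identifier, not by their values, and all 9 were found among the 32627 loci of the array. Leaf RNA was profiled from plants carrying MKK4DD, a version of the MAP kinase kinase MKK4 that is always active, placed behind a promoter that dexamethasone (DEX) induces. All 12 arrays came from plants with this transgene, either wild type otherwise (Col) or in the mutant sid2-2 (sid2 below), which lacks a functional SID2, a key enzyme of salicylic acid synthesis. Leaves of plants aged 4 weeks were infiltrated with 2 µM DEX or, as mock treatment, with 0.1% ethanol, and collected 24 h later, giving 4 groups by background and treatment with n = 3 biological replicates each. DEX-treated plants that lack the transgene were not analysed here, and DEX itself and induced MKK4DD cannot be told apart. In leaf tissue taken as a whole, fewer cells of a type and less RNA per cell cannot be told apart either.

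ACC synthases convert S-adenosylmethionine (SAM) to ACC, usually the rate-limiting step of ethylene synthesis, and ACC oxidases then turn ACC into ethylene. The isozymes differ mainly in their C-terminal tails. The tails of ACS2 and ACS6 are phosphorylated by the MAP kinases MPK3 and MPK6, which lie downstream of MKK4, and phosphorylation stabilises the proteins; the transcription factor WRKY33 acts on the genes of the same pair. ACS4, ACS5, ACS8 and ACS9 have tails recognised by ETO1 and its relatives, adaptors that mark the proteins for degradation, and ACS7 has a short tail without these features. The comparison asked which of the isozyme genes moved with DEX, and whether they moved alike with and without SID2.

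MKK4 and SID2 were examined first, as a check on the labels. With DEX, MKK4 rose by 1.92 ± 0.14 (log2, SE, adjusted p 4.55e-07) in Col, and its rise in sid2 was 2.03 ± 0.14 (adjusted p 3.24e-07). The SID2 level (log2 intensity) was 10.36, 9.72 and 10.21 in Col mock replicates 1, 2 and 3, and between 6.0 and 6.26 in the 6 sid2 arrays. The Col DEX arrays gave 12.48 (replicate 1), 6.08 (replicate 2) and 12.26 (replicate 3). The array labelled Col DEX replicate 2 therefore goes against its label; it was kept in the group its label gives, and the changes of the ACC synthases in Col are given with and without it. Among the other ethylene genes, the markers and the loci of similar profile below, none gained or lost a call in Col when it was left out; flanking loci were not checked in this way. Leaf mesophyll genes of photosynthesis (5 loci) had log2 levels between 11.21 and 14.45 in the mock arrays and between 5.0 and 14.0 in the DEX arrays. Genes specific to roots (4 loci) lay between 3.27 and 4.94 in all arrays. The defining markers of the labelled tissue were thus present in the mock arrays. Of the flower and anther genes (3 loci), AG was not low there, at 7.42 to 8.89 in the mock arrays.

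Levels are log2 values of the deposited intensity, and a change is the DEX mean minus the mock mean of a background. A locus was called when its change exceeded 2-fold with an adjusted p under 0.01 in limma. In Col, 5 of the 9 loci were called, against 28.7% of all loci: ACS2, ACS6 and ACS8 rose, and ACS4 and ACS11 fell. In sid2, 5 of 9 were called, against 27.8% of all loci: ACS2, ACS6 and ACS8 rose, and ACS4 and ACS5 fell. ACS2, ACS4, ACS6 and ACS8 were called in both backgrounds (26.3% of all loci were), and ACS1, ACS7 and ACS9 in neither. Among all loci 13.8% were called higher and 15% lower in Col, and 13% and 14.8% in sid2. The median change over the 9 loci was 0.19 in Col and 0.06 in sid2, beside 0.04 over all loci in each background. At an unadjusted p under 0.05 the count was 6 of 9 in each background, beside 59.7% of all loci in Col and 59.3% in sid2. Without the array labelled Col DEX replicate 2, 4 of 9 were called in Col (ACS8 was not), beside 27.7% of all loci, and 3 in both backgrounds (25.4% of all loci). The median change of the family in Col was then 0.29, and 6 of 9 had an unadjusted p under 0.05 (56.3% of all loci). The share of the family called was described and not tested, and its direction was split.

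**Figure D1:**
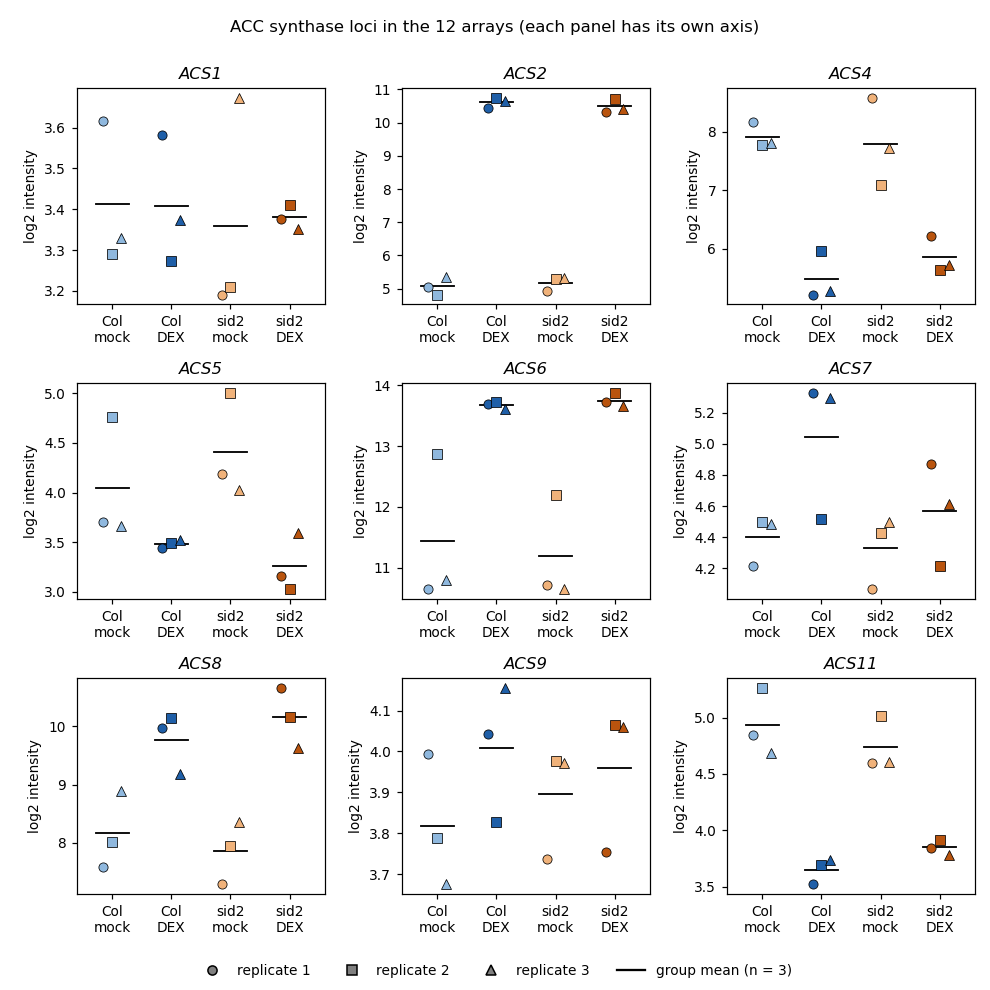
Log2 intensity of each of the 9 ACC synthase loci (vertical axes, 1 scale per panel) in the 12 arrays by group; symbols give the replicate number and black lines the group means (n = 3). ACS2 lay between 4.82 and 5.36 in the 6 mock arrays and between 10.33 and 10.74 in the 6 DEX arrays, while in ACS6 the replicate 2 mock arrays (12.88 in Col, 12.20 in sid2) stood above the other mock arrays.

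ACS2 showed the largest change of the family in each background. Its level was 5.04, 4.82 and 5.36 in Col mock replicates 1, 2 and 3, and 10.43, 10.74 and 10.66 in Col DEX. In sid2 it was 4.93, 5.30 and 5.31 in mock and 10.33, 10.71 and 10.43 in DEX. All DEX arrays lay far above all mock arrays, and the backgrounds overlapped within each treatment. The change was 5.54 ± 0.15 (SE) in Col (46.4-fold, adjusted p 5.16e-10) and 5.31 ± 0.15 in sid2 (39.6-fold, adjusted p 7.51e-10). The change in Col was 5.48 ± 0.18 (adjusted p 1.19e-08) when the array labelled Col DEX replicate 2 was left out. On the intensity scale ACS2 went from 28.2 to 41.0 in Col mock to between 1375 and 1706 in Col DEX. The loci with a value next to it by RefSeq position were AT1G01470 and AT1G01490. They changed by 0.14 and 0.15 in Col, and neither was called. Of the 18 loci flanking the 9 members, 8 were called in each background, beside 28.7% of all loci in Col and 27.8% in sid2. Among them were AT2G22820 beside ACS4 (3.03 in Col) and AT5G65790 beside ACS5 (6.70). The count was described and not tested. These neighbours were looked up after the values of ACS2 had been seen.

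ACS6, the other isozyme gene tied to MPK3, MPK6 and WRKY33, also rose in both backgrounds, from a much less even start. In Col mock its level was 10.64, 12.88 and 10.80 in replicates 1, 2 and 3, and in Col DEX 13.70, 13.73 and 13.61. In sid2 mock it was 10.71, 12.20 and 10.65, and in sid2 DEX 13.72, 13.87 and 13.66. The 6 DEX arrays thus lay between 13.61 and 13.87, while mock replicate 2 stood apart in each background. The change was 2.24 ± 0.46 in Col (adjusted p 0.00151) and 2.56 ± 0.46 in sid2 (adjusted p 6.03e-04). By pairs of the same replicate number it was 3.06, 0.85 and 2.81 in Col and 3.0, 1.67 and 3.01 in sid2. Dropping replicate 2 from every group gave 2.93 in Col and 3.01 in sid2. It was 2.42 ± 0.53 in Col (adjusted p 0.00325) when only the array labelled Col DEX replicate 2 was dropped. ACS6 was not called in either background in the fits without all replicate 1 arrays (adjusted p 0.0628 in Col and 0.0267 in sid2) or without all replicate 3 arrays (0.0467 and 0.0253).

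ACS8, whose transcript is known to follow the circadian clock, was the third locus called as raised. In Col its level was 7.58, 8.02 and 8.88 in mock and 9.97, 10.14 and 9.19 in DEX. In sid2 it was 7.29, 7.94 and 8.36 in mock and 10.66, 10.16 and 9.63 in DEX. Mock and DEX did not overlap in either background, but replicate 3 was the highest of each mock group and the lowest of each DEX group, so that its pair differed by 0.30 in Col and 1.27 in sid2. The pairs of replicates 1 and 2 differed by 2.39 and 2.11 in Col and by 3.37 and 2.22 in sid2. The change was 1.60 ± 0.40 in Col (adjusted p 0.00482) and 2.29 ± 0.40 in sid2 (adjusted p 4.48e-04). In Col the call was lost (1.41 ± 0.45, adjusted p 0.0244) on leaving out the array labelled Col DEX replicate 2. Nor did it hold without Col mock replicate 1 (1.3, adjusted p 0.0264), Col mock replicate 2 (1.5, 0.0204) or Col DEX replicate 1 (1.46, 0.0226). In sid2 it held when any single array was left out, but not without all replicate 1 arrays (1.75, adjusted p 0.0135) or all replicate 2 arrays (2.32, adjusted p 0.0138).

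ACS4, an auxin-inducible member, fell in both backgrounds. In Col its level was 8.16, 7.77 and 7.81 in mock and 5.22, 5.95 and 5.27 in DEX. In sid2 it was 8.57, 7.08 and 7.72 in mock and 6.23, 5.64 and 5.73 in DEX. The groups did not overlap, and all 6 same-numbered pairs were lower with DEX. In Col, ACS4 fell by 2.43 ± 0.31 (5.41-fold, adjusted p 4.40e-05). In sid2 it fell by 1.93 ± 0.31 (3.80-fold, adjusted p 2.77e-04), and that call was lost without all replicate 3 arrays (-1.89, adjusted p 0.0176). The array labelled Col DEX replicate 2 had the highest level of its group, and leaving it out gave a change in Col of -2.76 ± 0.30 (adjusted p 2.90e-05).

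ACS11 and ACS5 were lower with DEX at levels near the bottom of the array, where the lower quartile of all loci was 4.15 to 4.20. The level of ACS11 was 4.85, 5.27 and 4.68 in Col mock and 3.52, 3.70 and 3.74 in Col DEX. In sid2 it was 4.59, 5.02 and 4.61 in mock and 3.85, 3.92 and 3.78 in DEX. All 6 mock arrays lay above the lower quartile of their array and all 6 DEX arrays below it. ACS11 fell by 1.28 ± 0.14 in Col (adjusted p 1.06e-05) and was called there. It was called too when the array labelled Col DEX replicate 2 was left out (-1.25 ± 0.16, adjusted p 9.49e-05). In sid2 the change was -0.89 ± 0.14 (adjusted p 1.90e-04), past the p limit and short of 2-fold, so it was not called. With 16 added to each intensity before taking logs, the change in Col was -0.71 and no longer 2-fold.

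ACS5, which encodes the isozyme stabilised in the ethylene-overproducing mutant eto2, was called in sid2 alone. Its level was 3.71, 4.76 and 3.67 in Col mock and 3.44, 3.49 and 3.52 in Col DEX. In sid2 it was 4.18, 5.0 and 4.03 in mock and 3.16, 3.03 and 3.59 in DEX. Replicate 2 was the highest mock array in each background, and 9 of the 12 arrays (3 mock and 6 DEX) lay under their lower quartile. The change was -0.56 ± 0.29 in Col (adjusted p 0.126), or -0.48 ± 0.34 (adjusted p 0.276) after dropping the array labelled Col DEX replicate 2. In sid2 ACS5 fell by 1.14 ± 0.29 (adjusted p 0.00547). That call was lost without sid2 mock replicate 1 (-1.22, adjusted p 0.0125), sid2 mock replicate 2 (-0.88, 0.0284), sid2 DEX replicate 1 (-1.13, 0.0191) or sid2 DEX replicate 2 (-0.92, 0.0287). Without all replicate 2 arrays the change was -0.73, and with 16 added to each intensity it was -0.55 (adjusted p 0.0136), also not called. The difference between the changes of the backgrounds was -0.59 (95% interval -1.48 to 0.31) and was not called, so ACS5 was not shown to respond differently in them.

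ACS7, ACS9 and ACS1 were called in neither background. ACS7 had levels of 4.22, 4.50 and 4.49 in Col mock, and of 5.33, 4.52 and 5.29 in Col DEX, a change of 0.64 ± 0.22 (adjusted p 0.0265). The array labelled Col DEX replicate 2 was the low one of its group, and without it the change was 0.90 ± 0.20 (adjusted p 0.00313), still under 2-fold. In sid2 its levels were 4.07, 4.42 and 4.50 in mock and 4.87, 4.21 and 4.61 in DEX, which overlap, with a change of 0.24 ± 0.22 (adjusted p 0.393). ACS9, the isozyme affected in the mutant eto3, and ACS1, which is inactive as a homodimer, lay under the lower quartile in all 12 arrays. ACS9 ranged from 3.68 to 4.16 and changed by 0.19 ± 0.13 in Col (0.29 ± 0.14 without the array labelled Col DEX replicate 2) and 0.06 ± 0.13 in sid2. ACS1 ranged from 3.19 to 3.67, with changes of -0.0027 ± 0.14 in Col (0.05 ± 0.16 without that array) and 0.02 ± 0.14 in sid2. The array's background was not given, so a low level of these transcripts and no detection cannot be told apart.

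**Figure D2:**
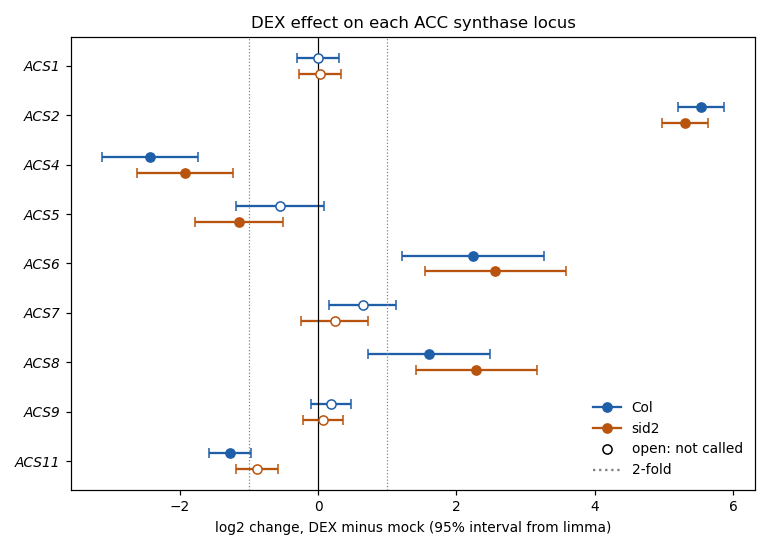
Log2 change with DEX (horizontal axis, DEX mean minus mock mean) of the 9 ACC synthase loci in Col and sid2, with 95% intervals from limma; filled points were called and dotted lines mark 2-fold. ACS2 (5.54 and 5.31) lay furthest right, ACS4 (-2.43 and -1.93) furthest left, and the intervals of Col and sid2 overlapped for each locus.

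Counted by non-overlap of the 3 mock and 3 DEX arrays, 7 of the 9 loci were separated in Col, where 57.7% of all loci were (8 of 9 and 62.3% without the array labelled Col DEX replicate 2), and 6 of 9 in sid2, where 60.6% of all loci were. ACS9 and ACS1 overlapped in Col, and ACS7, ACS9 and ACS1 in sid2. By group means, both DEX groups ranked above both mock groups for ACS2, ACS6, ACS8 and the uncalled ACS7 and ACS9, and below them for ACS4, ACS5 and ACS11, while ACS1 showed neither order. For called loci this order follows largely from the call. Within a treatment, the Col and sid2 arrays overlapped in every member but ACS11 in DEX. Without the array labelled Col DEX replicate 2, those of ACS4 and ACS7 in DEX did not overlap either. With fewer arrays, groups separate more easily. The share of all loci was not computed for that comparison, so this is not a result about the family.

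The effect of the sid2 mutation was tested in each treatment and as the difference between the DEX changes. None of the 9 loci was called in any of these 3 tests, in which limma called 1, 0 and 0 of all loci (0.00306%, 0% and 0%). At an unadjusted p under 0.05 the count was again 0 of 9 in each test, against 6.95%, 5.77% and 2.25% of all loci. These counts kept the array labelled Col DEX replicate 2. Without it, the intervals in DEX excluded 0 for ACS4 (0.04 to 1.38) and ACS7 (-1.17 to -0.29). So did that of the difference for ACS7 (-1.24 to -0.08), while those of the other members included 0 in both tests. The matching share of all loci is not given for that fit. In mock the differences (sid2 minus Col) ran from -0.30 for ACS8 to 0.36 for ACS5, and 0 of 9 loci had groups that did not overlap, against 10.2% of all loci. In DEX, with the array labelled Col DEX replicate 2 kept, they ran from -0.48 for ACS7 (SE 0.22, adjusted p 0.856) to 0.39 for ACS4. ACS11 was the 1 locus of 9 whose DEX groups did not overlap (10.8% of all loci), at 3.52 to 3.74 in Col and 3.78 to 3.92 in sid2.

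The intervals of the difference between the DEX changes (sid2 minus Col) give the range of differences that these 12 arrays allow. For ACS2 the difference was -0.23 (95% interval -0.70 to 0.25) and for ACS11 it was 0.39 (-0.04 to 0.82). For ACS4 it was 0.51 (-0.47 to 1.49), for ACS8 0.69 (-0.55 to 1.93), for ACS6 0.32 (-1.12 to 1.77) and for ACS7 -0.41 (-1.09 to 0.28). All 9 intervals included 0, but those of ACS4, ACS5, ACS6, ACS7 and ACS8 also included a 2-fold difference in 1 direction or both, so a difference of that size between backgrounds was not excluded there. Leaving out the array labelled Col DEX replicate 2, ACS7 differed by -0.66 (-1.24 to -0.08, adjusted p 1.0), and in DEX it was lower in sid2 than in Col by 0.73 on the log2 scale (interval of the difference -1.17 to -0.29, adjusted p 0.365). In that fit ACS4 in DEX differed by 0.71 (0.04 to 1.38, adjusted p 0.782). No ACC synthase was called in these tests without that array, while 2, 38 and 3 of all loci were (0.00613%, 0.116% and 0.00919%).

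Mock replicate 2 stood apart in part of the family. In both backgrounds its level was above the mean of mock replicates 1 and 3 by more than 0.4 in 3 of the 9 loci. The share of all loci past this limit was not computed, so the count is not a result about the family. The excess was 2.16 in Col and 1.52 in sid2 for ACS6, 1.07 and 0.90 for ACS5, and 0.50 and 0.42 for ACS11. The other 6 loci showed no such excess in both backgrounds, and for ACS4 the difference was -0.22 in Col and -1.06 in sid2. The arrays that were high for ACS6 were also high for WRKY33 (1.68 in Col and 1.42 in sid2), for FRK1, a receptor kinase gene used as a marker of early MAPK signaling (2.03 and 1.39), and for the ethylene receptor gene ETR2 (3.96 and 4.13). Other genes of the lists went the other way in both backgrounds. Among them were EOL2 (-0.48 in Col and -0.33 in sid2), RBCS1B (-0.45 and -0.87) and AG (-1.02 and -0.84), all described below. Since ACS6 was raised by DEX while ACS5 and ACS11 were lowered, a high mock replicate 2 made the change of ACS6 smaller and those of ACS5 and ACS11 larger. What set these mock arrays apart was not tested.

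**Figure D3:**
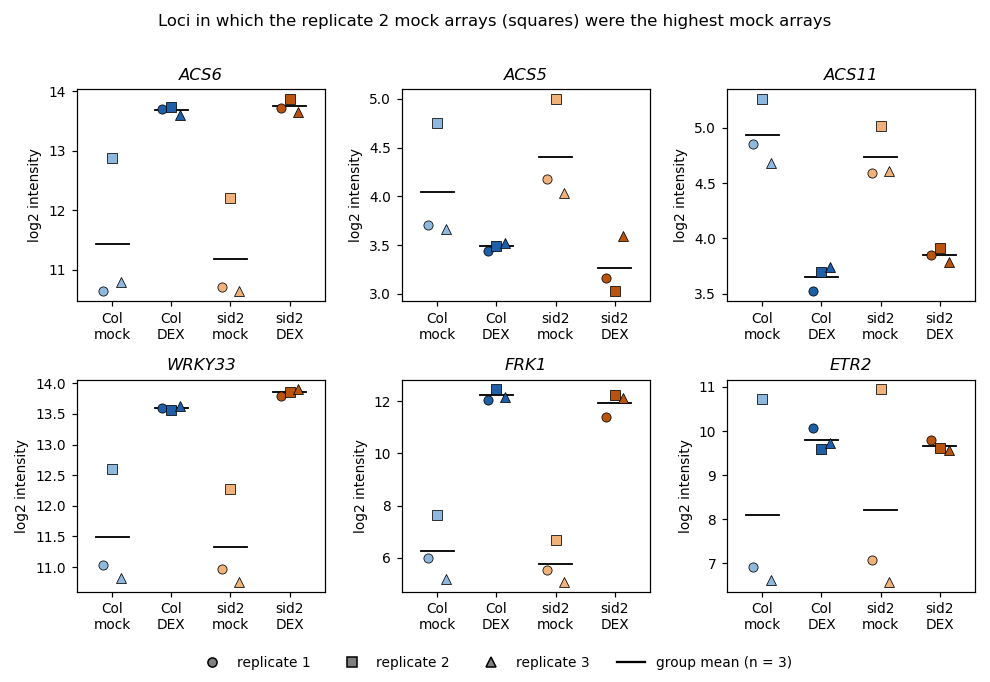
Log2 intensity (vertical axes, 1 scale per panel) in the 12 arrays of the 3 ACC synthase loci and of WRKY33, FRK1 and ETR2, with squares for replicate 2 and lines for group means (n = 3). The mock squares are the highest mock points in both backgrounds in all 6 panels, because the loci shown were chosen for this. For ETR2 they reach 10.73 in Col and 10.95 in sid2, above all 6 DEX arrays.

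Loci with the most similar profiles were listed for each ACC synthase called in at least 1 background, as the 3 with the smallest root-mean-square (RMS) difference of centred log2 levels over the 12 arrays. The nearest to ACS6 were AT2G41640 (RMS 0.16), WRKY33 (0.18) and BCS1, an AAA-type ATPase of the outer mitochondrial membrane (0.18). The rise of WRKY33 was 2.11 ± 0.40 in Col and 2.52 ± 0.40 in sid2. The nearest to ACS2 were ORS1, a regulator of organ size (0.21), AT1G11572 (0.22) and MYB61, a transcription factor (0.24), which changed by 5.58, 5.59 and 5.37 in Col. For ACS8 the likeness was looser, with PATL2 at 0.31, AT4G34930 at 0.33 and AT5G14130 at 0.35. Those nearest to ACS4 were AT1G70550 (0.27), RLP29 (0.28) and AT4G31890 (0.28). Among the dim loci, ACS5 was nearest to CYP718 (0.17) and GA20OX4 (0.18), and ACS11 to AT3G06995 (0.11), which RefSeq lists as a transcribed pseudogene, and PFK6 (0.14). The ranking used these same arrays, so DEX changes close to those of the ACC synthase follow from the choice. The likeness covers these 12 arrays and nothing beyond them.

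The remaining steps of ethylene synthesis were read from lists of known genes. None of the 4 SAM synthetase genes, which make the substrate of ACC synthase, was called in either background. Of the 4 ACC oxidase genes reported, 1 was called higher and 2 lower in each. The shares of all loci were 13.8% higher and 15% lower in Col, and 13% and 14.8% in sid2. ACO4, the ethylene-forming enzyme EFE, had levels of 12.27, 12.22 and 11.98 in Col mock and 13.85, 13.77 and 13.79 in Col DEX. Its rise was 1.65 ± 0.10 in Col (adjusted p 1.21e-07) and 1.70 ± 0.10 in sid2 (1.06e-07). AT1G12010, annotated with ACC oxidase activity, fell by 2.12 ± 0.17 in Col and fell by 2.01 ± 0.17 in sid2. ACO5 fell by 2.17 ± 0.21 in Col and fell by 2.20 ± 0.21 in sid2. ACO1 changed by 0.73 in Col (adjusted p 0.00205) and 0.78 in sid2 (0.00139), under 2-fold. The oxidase genes were thus split in direction, as the synthase genes were. ACS10 and ACS12, which resemble ACC synthases in sequence but act as aminotransferases, were not called, with changes of -0.90 and -0.16 in Col and -0.82 and -0.23 in sid2.

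Among the 4 genes for proteins that control ACC synthase turnover, 1 was called, beside 28.7% of all loci in Col and 27.8% in sid2. This was EOL2, a relative of ETO1. Its level was 11.18, 10.60 and 10.98 in Col mock and 8.62, 8.41 and 8.23 in Col DEX, and its change was -2.50 ± 0.15 in Col (adjusted p 1.07e-07) and -2.58 ± 0.15 in sid2 (9.41e-08). ETO1 changed by 0.24 in Col and 0.04 in sid2, EOL1 by -0.35 and -0.39, and XBAT32, a ubiquitin ligase acting on ACS4 and ACS7, by 0.56 and 0.53. The kinase genes MPK3 (0.16 in Col and 0.27 in sid2) and MPK6 (0.23 and 0.28) were not called. Arrays measure transcripts, and neither the ACC synthase proteins nor their phosphorylation was measured on them.

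Of the 5 ethylene receptor genes, 2 were called higher in Col and 1 in sid2, beside 13.8% and 13% of all loci. The rise of EIN4 was 1.76 ± 0.19 in Col (adjusted p 1.34e-05) and 1.61 ± 0.19 in sid2 (2.78e-05). ETR1 rose by 1.07 ± 0.09 in Col and changed by 0.97 ± 0.09 in sid2, on either side of the 2-fold limit. ETR2, a receptor gene induced by ethylene itself, had mock levels of 6.92, 10.73 and 6.61 in Col and 7.07, 10.95 and 6.57 in sid2. Its DEX levels were 10.08, 9.60 and 9.74 in Col and 9.80, 9.63 and 9.56 in sid2, so that replicates 1 and 3 were higher with DEX and replicate 2 was lower. Its change of 1.72 ± 1.03 in Col (adjusted p 0.184) and 1.47 ± 1.03 in sid2 (adjusted p 0.256) was not called.

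**Figure D4:**
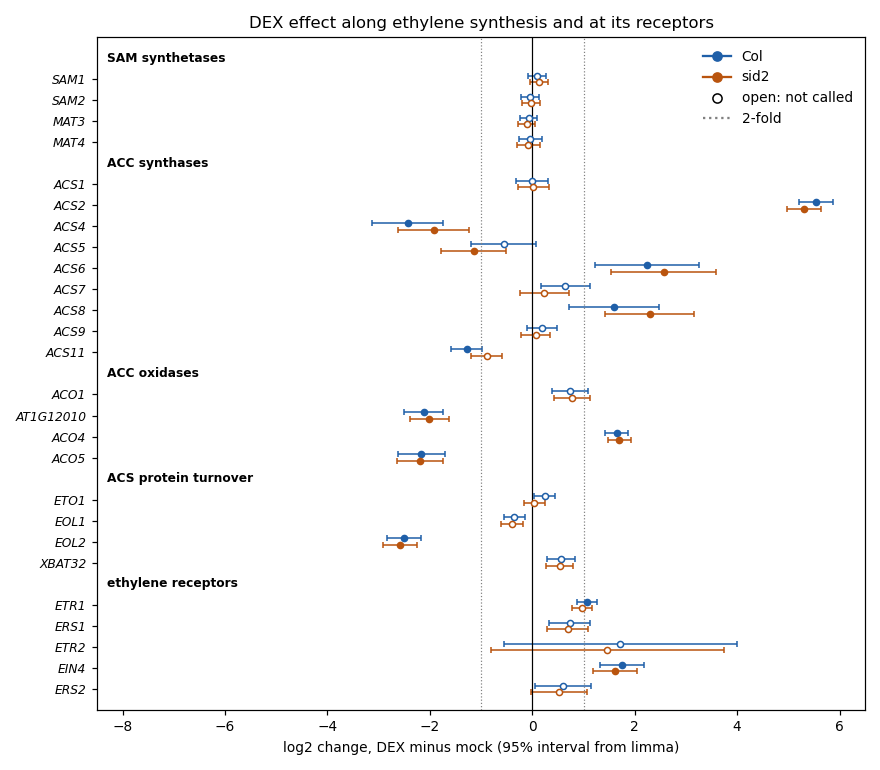
Log2 change with DEX (horizontal axis, 95% intervals from limma) of the genes for SAM synthetases, ACC synthases, ACC oxidases, proteins of ACC synthase turnover and ethylene receptors in Col and sid2; filled points were called and dotted lines mark 2-fold. The changes of the SAM synthetase genes lay between -0.11 and 0.13, and those of the ACC synthase and ACC oxidase genes lay on both sides of 0.

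Markers of cell types were followed beside these changes. The summed intensity of the 5 leaf mesophyll markers was 72280 to 81989 in the mock arrays and 32533 to 47880 in the DEX arrays. Of these 5 markers, 4 were called lower in Col and 2 in sid2, beside 15% and 14.8% of all loci. RBCS1B, which encodes a small subunit of Rubisco, changed most, falling from between 11.39 and 12.14 in Col mock to between 5.0 and 6.64 in Col DEX. The 4 root markers summed to 55.7 to 68.2 in mock and 66.8 to 88.9 in DEX, and none was called in either background. The 3 flower and anther markers summed to 207.5 to 514.2 in mock and 90.5 to 128.3 in DEX, and AG, a floral organ identity gene, was called lower in both backgrounds. The part of these shifts in the ACC synthase changes was not tested.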

How the data were processed

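Leaf RNA was labelled with Cy3 and hybridised to NimbleGen arrays designed on TAIR9 gene models, 1 sample per array. According to the methods, the authors summarised probe signals per transcript by the robust multi-array average (RMA) and kept the transcript with the higher value for its gene; the RMA version is not given in the sources used here. The deposited values are expression intensities on a linear scale, 1 per locus and array, with medians of 255 to 289 and 0 missing values. RMA equalises the arrays at the level of probes, so a change of total RNA per cell does not show. The deposited locus values were not fully equalised. Their medians were 254.9 to 261.8 in the DEX arrays and 268.0 to 289.5 in the mock arrays. Probe values were not analysed here, and cross-hybridisation between the related ACC synthase transcripts was not examined.

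Intensities were converted to log2. A model with 4 groups was fitted to all 32627 loci with limma 3.58.1 (R 4.3.3), with the replicate number as a random block (duplicateCorrelation with statmod 1.5.0, consensus correlation 0.208), as in the study. Tests were two-sided, with Benjamini-Hochberg adjustment across all loci in place of the study's q-values. Errors are SE unless stated. The fit was run on simulated data with far fewer changed loci than were called here and no array against its label. That run does not show how accurate the calls are in these data. Symbols came from RefSeq (TAIR10.1), which had an entry for 31993 loci (98.1%). Its coordinates were used only to order the loci when the flanking loci were picked.

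Replicate numbers mark 3 independent experiments per the methods. Deviations from the group means of same-numbered arrays correlated at 0.174 to 0.303 between Col mock and DEX, 0.100 to 0.215 between sid2 mock and DEX, 0.563 to 0.733 between the mock groups and 0.387 to 0.668 between the DEX groups, and the arrays were treated as paired by number. The members, gene lists and tests were chosen with earlier results of these data known. All 9 members were named whatever their values; other genes came from lists of ethylene genes and markers, and from the ranking of similar profiles; 1 gene of these lists is not reported here. Precision is limited by the number of arrays.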

Additional observations from a re-analysis of the deposited data

How the results depend on the processing

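The settings were other block treatments, a pseudocount of 16, 2 other scalings, a filter on dim loci, array weights, a mean-variance trend, limma's treat, fits of the compared groups alone, other limits, and leaving out each array or replicate number. ACS2 was called in both backgrounds and ACS4 in Col in all 27 of them. The count of ACC synthases called was 5 in each background and fell, in Col, to 2 with treat (ACS2 and ACS4) and to 3 with a 4-fold limit, and in sid2 to 1 with treat (ACS2) and to 3 with a 4-fold limit. It was 4 in each with a pseudocount of 16 (ACS11 lost in Col, ACS5 in sid2) and in fits of the compared groups alone (ACS8 lost in Col, adjusted p 0.0106, and ACS5 in sid2, 0.0129). Leaving out arrays gave 3 to 5 in Col and 2 to 5 in sid2. The lowest values came from leaving out a replicate number in all groups, which leaves 2 arrays per group: 3 in Col without replicate 1, and 2, 3 and 2 in sid2 without replicates 1, 2 and 3. With no replicate block the count was 5 in Col and 4 in sid2 (ACS5 lost, adjusted p 0.0103). With the replicate block as a fixed term it was 4 in Col (ACS8 lost, adjusted p 0.0109) and 5 in sid2. The block changed no other call of an ACC synthase. Of all 32627 loci, 9372 were called in Col and 9081 in sid2 in the reported fit. With treat these numbers were 5328 and 5091, with a 4-fold limit 4485 and 4303, and with the pseudocount 8643 and 8343. Fits of the compared groups alone called 9057 and 8849. Without replicates 1, 2 and 3 they were 8424, 8982 and 8504 in Col, and 8262, 8745 and 8060 in sid2. With no block 9086 and 8809 were called, and with a fixed block 9403 and 9122. The filter on dim loci (mean log2 under 5) kept 4 of the 9 members, all 4 called in both backgrounds. Of the 21726 loci it kept, 8936 were called in Col and 8635 in sid2. Tests of the sid2 mutation called 0 members under every setting run. A common median moved the median change of all loci by 0.11 in Col and 0.10 in sid2. It kept 5 members called in each, beside 9615 of all loci in Col and 9269 in sid2. For ACS1 the change in Col was then 0.10, and leaving out arrays gave -0.086 to 0.099 in Col and -0.089 to 0.19 in sid2. Leaving out arrays also turned the sign of other values that were not called. The DEX change in sid2 ran from -0.048 to 0.46 for ACS7 and from -0.015 to 0.17 for ACS9. The sid2 effect in mock ran from -0.25 to 0.13 (ACS1), -0.079 to 0.24 (ACS2), -0.49 to 0.24 (ACS4), -0.65 to 0.39 (ACS6), -0.19 to 0.090 (ACS7), -0.60 to 0.10 (ACS8) and -0.034 to 0.24 (ACS9). In DEX it ran from -0.11 to 0.058 (ACS1), -0.11 to 0.21 (ACS6) and -0.19 to 0.071 (ACS9). The difference between the DEX changes ran from -0.087 to 0.22 (ACS1), -0.31 to 0.72 (ACS6) and -0.24 to 0.0085 (ACS9). Array weights turned the sid2 effect in mock of ACS4 (0.13) and ACS9 (-0.053), that in DEX of ACS1 (0.0020) and the difference of ACS9 (0.019). The cause was not tested.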
